A study of Mus musculus with 9 samples.

Results

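The genes described here are 58 genes of mitosis: the kinetochore, the spindle, the checkpoint that watches both, and the machinery that splits the cell. They were taken by symbol from a list of kinetochore, spindle and cytokinesis genes, and all 58 were found among the 24493 gene rows of the expression table. All 58 also passed the expression filter (at least 1 TPM in at least 3 libraries), which left 12693 genes to test. For the description they were divided into 8 classes: the chromosomal passenger complex (4 genes), the spindle assembly checkpoint (7), mitotic entry and anaphase control (6), the inner kinetochore (9), the outer kinetochore (11), spindle assembly and motors (10), midzone and cytokinesis (9), and chromosome structure and surface (2).

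The RNA came from 6620c1, a mouse pancreatic tumor cell line, sampled at day 0, day 2 and day 14 of nutrient and oxygen deprivation, with 3 libraries a day and no further treatment. The deprivation medium was DMEM in which glucose was 2.5 mM, fetal calf serum was held at 0.5% and amino acids at 20% of the usual concentration. The labels give this medium for all 9 libraries, those of day 0 included. The sources used here name neither the medium before day 0 nor the oxygen level, and they do not explain the prefix WT that the columns carry. A single cell line was studied, with no undeprived culture of the same age among the samples, so the effects of deprivation and of culture time cannot be told apart. The labels do not say whether the 3 libraries of a day were separate cultures, so p-values measure only the spread between these libraries, which may be technical. The measurements are TPM (length-corrected transcript abundances that add up to the same sum in every library), so levels of different genes can be set side by side.

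The kinetochore is the protein plate built on each centromere that holds a chromosome to the microtubules of the spindle. Its inner layer sits on nucleosomes with the histone variant CENP-A, its outer layer (with the NDC80 and SKA complexes) grips the microtubules, and the spindle assembly checkpoint blocks anaphase until every kinetochore is attached. The chromosomal passenger complex corrects wrong attachments and later moves to the midzone, where bundled microtubules and kinesin motors position the ring that cleaves the cell. Most of these genes are transcribed late in the cell cycle, when cells prepare to divide, and their mRNAs are low in resting cells.

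The keratins Krt8, Krt18, Krt19 and Krt7 and the adhesion gene Cdh1 were high, with summed levels of 8 epithelial markers of 10842 to 11498 TPM at day 0, from 5497 to 7621 TPM on day 2 and from 6889 to 8672 TPM on day 14. Epcam was low, at 2.23, 0.686 and 14.1 TPM on average on the 3 days, and Cldn4 at 0.257, 0.190 and 1.34 TPM. All 6 endothelial markers and 7 of 9 fibroblast markers were under 1 TPM in all 9 libraries. So were 6 of 9 leukocyte markers and 6 of 9 acinar and endocrine markers. The summed levels of these lists stayed at or under 35.8 TPM. The leukocyte exceptions were Mrc1, Cd68 and Csf1r. Mrc1 averaged 26.6 TPM at day 0 and was lower at day 14, at 10.4 TPM (limma, adjusted p = 0.000654). Between the same days Cd68 rose from 2.20 to 6.32 TPM (adjusted p = 0.00087). Csf1r rose from 0.215 to 3.97 TPM (adjusted p = 0.000194). The epithelial sum was lower at day 2 than at day 0, but the markers did not move as 1. Of 7 tested, 4 were lower at day 2 (limma), as were 31.9% of all genes tested. Krt19, Cdh1 and Cldn7 did not pass there. At day 14, 3 were lower than day 0 and 3 higher (Epcam, Cdh1 and Cldn7), beside 18.8% and 36.2% of all genes. The part of these changes in the results was not tested. The 20 most abundant rows took 19.1% to 33.9% of all TPM, with the highest share in day 2 replicate 3.

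At day 2 the mitotic genes had fallen almost as a body. Their summed level was 3472, 3786 and 4043 TPM in the 3 day 0 libraries, 401, 471 and 395 TPM in the day 2 libraries and 2001, 1634 and 2163 TPM in the day 14 libraries. The 3 days did not overlap in this sum: day 2 was lowest, and day 14 lay between day 2 and day 0. In these bulk libraries fewer dividing cells and less RNA per cell cannot be told apart. Against day 0, 56 of the 58 genes were lower at day 2 and 0 were higher in limma's test (Benjamini-Hochberg adjusted over all genes tested), where 31.9% of all genes tested were lower and 27.1% were higher. At an unadjusted p under 0.05 the count of genes higher at day 2 was also 0. The same 56 genes had no day 2 library overlapping the day 0 libraries, against 34.8% of all genes that were lower without overlap, and Zwint was higher without overlap, as were 31.7% of all genes. The median log2 fold change of the 58 was -3.47, beside -0.02 for all genes tested, and 30 of the 58 stood among the 100 tested genes with the lowest fold changes. The median gene kept 6.77% of its day 0 TPM, 20 genes kept under 5%, and a further 24 kept from 5 to 10%.

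By day 14 most of the genes had risen again without reaching their day 0 level. Against day 2, 56 of 58 were higher at day 14 and 0 were lower (limma), where 27.4% of all genes were higher and 3.79% lower. The same 56 were higher without overlap between the libraries and 0 were lower, beside 35.1% and 6.11% of all genes. The count of genes lower at an unadjusted p under 0.05 was 0 there too. Against day 0, 48 were still lower, 1 was higher (Zwint) and 9 did not pass the test, where 18.8% of all genes were lower and 36.2% higher. Without overlap 51 were lower and 1 higher, beside 23.3% and 43.2% of all genes. The median gene stood at 52.9% of its day 0 mean. Of the TPM lost between day 0 and day 2, the median gene had regained 47.7% (over the 56 genes that were lower at day 2), beside 41.3% over all 4046 genes that were lower at day 2. The share regained spread widely among the genes, from 21.7% to 105%, with 4 genes under 30%, 16 from 30 to 40%, 12 from 40 to 50%, 11 from 50 to 60%, 7 from 60 to 70%, 3 from 70 to 80%, 2 from 80 to 100% and 1 above 100%. All 12693 genes tested were on balance higher at day 14 than at day 0, with a median log2 fold change of 0.22, so the median of the 58 genes, -0.88, lay 1.10 below it. Under median-of-ratios scaling, which sets the median gene close to no change, 54 of the 58 were lower at day 14, 0 were higher, and the median share regained was 35.9%. Fold changes are of log2(TPM + 1), a scale that makes changes at low levels look smaller than they were. The 9 genes with a day 2 mean under 1 TPM are the most affected, and none of the 58 was at 0 TPM in any library.

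**Figure D1:**
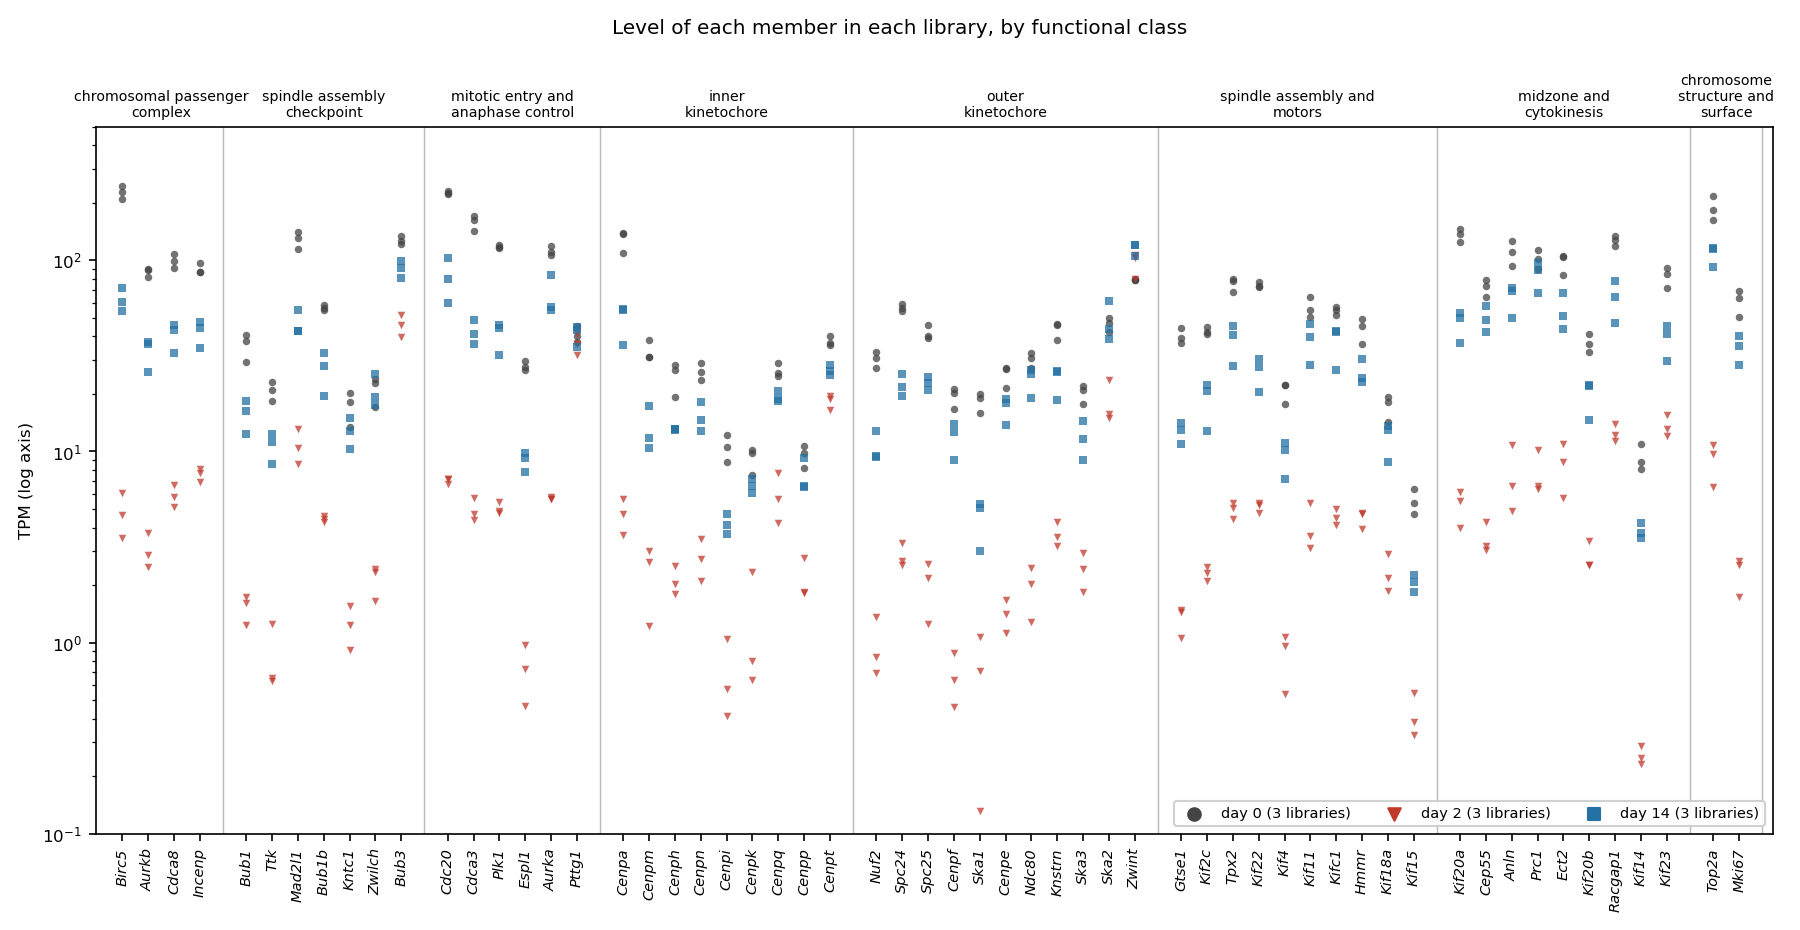
TPM (log axis) of the 58 genes in each of the 9 libraries, grouped by class along the horizontal axis, with 1 point per library and 1 color per day. The day 2 points lie below the day 0 points for 56 genes, and only those of Pttg1 and Zwint do not.

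The libraries of a day were not equal for these genes. Day 14 replicate 2 gave the lowest of the 3 day 14 values for 48 of the 58 genes, and day 14 replicate 3 the highest for 38. At day 0, replicate 1 was lowest for 43 genes and replicate 3 highest for 50, and at day 2, replicate 1 was lowest for 43. The median share regained was 49.9, 36.4 and 54.0% in day 14 replicates 1, 2 and 3 respectively. What set replicate 2 apart was not tested.

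The chromosomal passenger complex and the genes of mitotic entry and anaphase control fell deepest among the larger classes. Their median log2 fold changes at day 2 were -4.16 and -4.20, and the pair of chromosome genes, Mki67 and Top2a, had -4.24. The inner kinetochore fell least, with -2.79. Between these lay spindle assembly and motors (-3.55), the outer kinetochore (-3.45), midzone and cytokinesis (-3.41) and the checkpoint (-3.41). In the single day 2 libraries, the class median against the day 0 mean was -4.32, -4.15 and -4.22 for mitotic entry and anaphase control and -3.02, -2.49 and -2.85 for the inner kinetochore. These 2 classes did not overlap, whereas the 4 classes in the middle did. The inner kinetochore's median lay 0.62 above that of midzone and cytokinesis. Genes are not replicates, so no test was made between classes. The 3 deepest classes and the shallowest were the same in all 19 alternative analyses that bear on the fold changes.

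The order of return was a different one. Mitotic entry and anaphase control regained least, with a class median of 31.6% of the TPM lost, and the passenger complex came next with 36.6%. Higher medians were found for spindle assembly and motors (45.2%), the inner kinetochore (48.3%), midzone and cytokinesis (49.1%), the checkpoint (49.3%), the outer kinetochore (52.2%) and the 2 chromosome genes (55.2%). In day 14 replicates 1, 2 and 3 the median of mitotic entry and anaphase control was 34.8, 24.1 and 33.4%, and that of the outer kinetochore was 54.0, 41.0 and 62.1%. The lowest outer kinetochore library was thus above the highest entry and anaphase library, and within every library the outer kinetochore was the higher. The inner kinetochore and the midzone genes, which differed in depth of loss, differed by only -0.83 percentage points in the share regained, less than the spread between libraries. Mki67 and Top2a combined a deep loss with one of the larger returns, and the passenger complex a deep loss with a small return. The 2 classes that regained least held their places in all 20 alternative analyses. The chromosome genes were highest in 19 of them, and without day 14 replicate 1 the outer kinetochore passed them (52.2% against 51.9%).

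**Figure D2:**
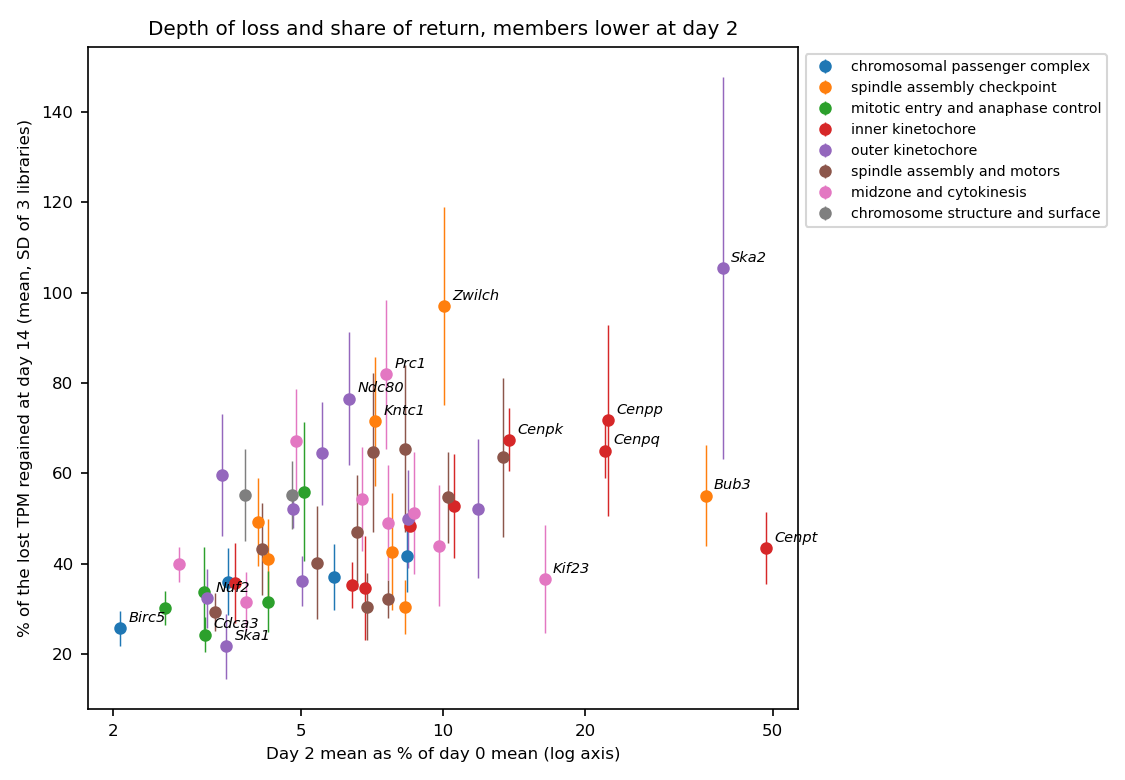
Percent of the day 0 TPM left at day 2 (horizontal, log axis) against the percent of the lost TPM regained at day 14 (vertical), with 1 point for each of the 56 genes that were lower at day 2, colored by class. Genes with like losses regained from under 30% to over 60%, and Ska2 at the upper right lost least of the outer kinetochore genes and regained 105%.

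**Figure D3:**
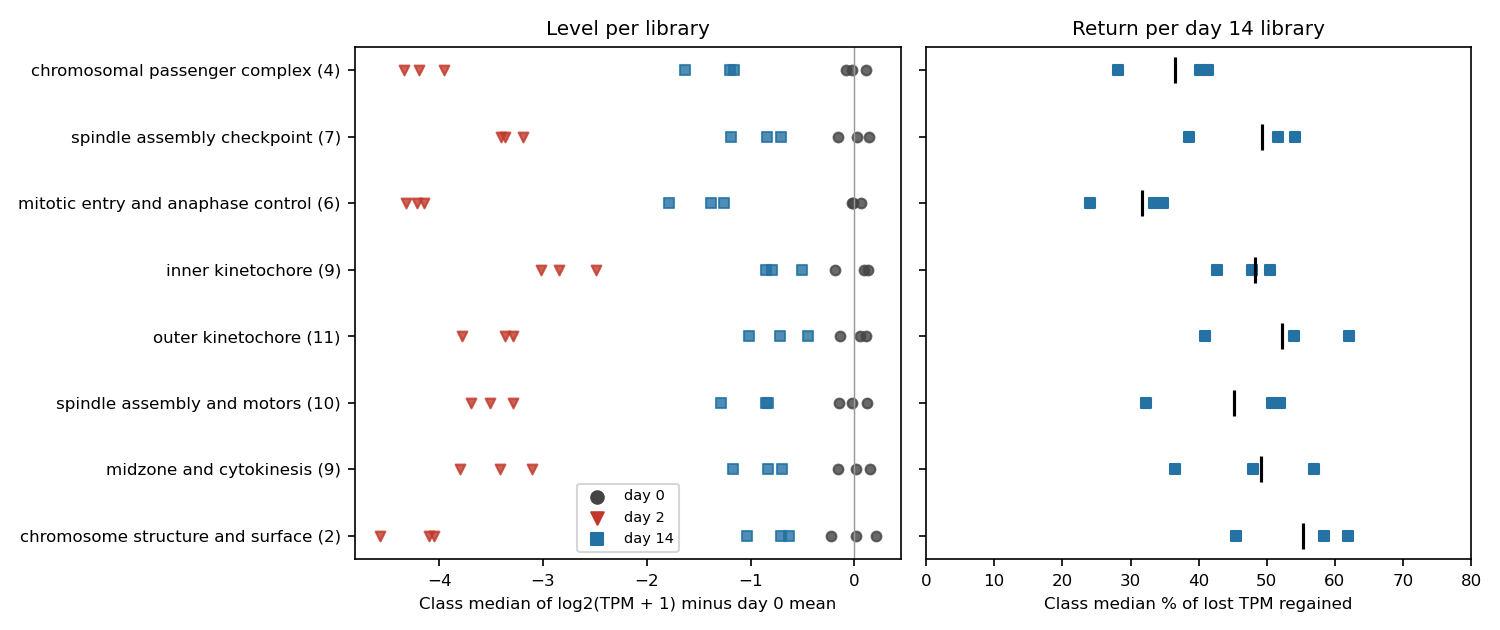
Class medians by library, as log2(TPM + 1) relative to the day 0 mean for each of the 9 libraries and as the percent of lost TPM regained for each of the 3 day 14 libraries. The inner kinetochore stands highest at day 2, and mitotic entry and anaphase control and the passenger complex stand lowest in share regained.

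In the chromosomal passenger complex all 4 genes fell at day 2, rose again by day 14 and remained under day 0. Birc5, which encodes survivin and targets the complex to centromeres, was the most abundant of the 58 genes at day 0 and fell the most. It was 210.2, 229 and 246 TPM at day 0, 3.52, 6.03 and 4.64 at day 2, and 60.8, 54.6 and 71.8 at day 14. The 3 days did not overlap. Its log2 fold change was -5.34 ± 0.17 (SE) at day 2 (limma, adjusted p = 1.88e-07) and -1.86 ± 0.17 (SE) at day 14 (adjusted p = 5.23e-05), which on the TPM scale is 48.3-fold lower at day 2 and 25.8% ± 3.88 of the loss regained at day 14 (SD over 3 libraries). Incenp, the scaffold that holds the kinase, fell the least of the 4 and regained the most. It was 86.9, 87.3 and 97.0 TPM at day 0, 8.10, 7.73 and 6.92 at day 2, and 44.3, 34.7 and 47.4 at day 14. Its 3 days were separate as well, with 8.39% left at day 2 and 41.7% regained. The kinase Aurkb kept 3.51% and regained 36.1%, and Cdca8 (borealin) kept 5.89% and regained 37.0%. With these unequal losses, the ratio of Incenp to Birc5 TPM went from 0.413, 0.382 and 0.394 at day 0 to 2.30, 1.28 and 1.49 at day 2 and 0.729, 0.636 and 0.660 at day 14, higher in every later library than in any day 0 library.

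In mitotic entry and anaphase control 5 of 6 genes fell at day 2 and were still lower at day 14, and Pttg1 did neither. Cdc20, which activates the anaphase-promoting complex and is the target of the checkpoint, had the highest day 0 level of the class and its largest fall on the log2(TPM + 1) scale. It was 222, 225 and 231 TPM at day 0, 7.15, 7.19 and 6.77 at day 2, and 103, 59.8 and 79.99 at day 14. The day 2 libraries were tight and far below the rest, and the day 14 libraries differed among themselves more than those of any other day. Its log2 fold change was -4.82 ± 0.17 (SE) at day 2 (limma, adjusted p = 2.4e-07) and -1.50 ± 0.17 (SE) at day 14 (adjusted p = 0.000139). Cdca3, a cofactor in the breakdown of the Wee1 kinase at mitotic entry, regained the least of the class. It was 142, 163 and 169.6 TPM at day 0, 4.40, 5.73 and 4.73 at day 2, and 48.6, 36.7 and 41.2 at day 14, with no overlap between days and 24.3% ± 3.93 of the loss regained. The kinase Aurka, which acts at centrosomes and spindle poles, regained the most, 56.0% ± 15.4. It was 111, 107 and 119 TPM at day 0, 5.63, 5.65 and 5.74 at day 2, and 56.9, 54.8 and 84.1 at day 14, and day 14 replicate 3 lay well above the other day 14 libraries. Plk1, the polo kinase of mitotic entry, kept 4.25% at day 2 and regained 31.6%, and Espl1, the protease separase that cuts cohesin, kept 2.57%, less than the 3.11% of Cdc20, and regained 30.2%.

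Pttg1, which encodes securin, the inhibitor that holds separase inactive until anaphase, did not pass the test in any comparison. It was 45.5, 40.3 and 37.5 TPM at day 0, 41.4, 36.3 and 32.1 at day 2, and 35.3, 44.9 and 43.2 at day 14. The libraries of the 3 days overlapped. Its log2 fold change was -0.17 ± 0.14 (SE) at day 2 (limma, adjusted p = 0.323), and its day 14 level was 100.2% of the day 0 mean (adjusted p = 0.997). Its ratio to Espl1, the gene of the protease it inhibits, went from 1.65, 1.51 and 1.26 in the day 0 libraries to 89.3, 50.2 and 33.0 in the day 2 libraries, and was 3.82, 5.74 and 4.40 in the day 14 libraries. The day 2 ratios rest on Espl1 values under 1 TPM, and their spread is wide.

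All 7 checkpoint genes fell at day 2, and 5 were still lower at day 14. Mad2l1 (MAD2), which with the BUB proteins captures Cdc20, was the most abundant of the class at day 0 and regained the least. It was 115, 131 and 141 TPM at day 0, 10.4, 13.2 and 8.63 at day 2, and 42.7, 42.8 and 55.1 at day 14, with the 3 days apart, a log2 fold change of -3.48 ± 0.17 (SE) at day 2 (limma, adjusted p = 5.68e-07) and 30.5% ± 6.03 of the loss regained. Bub1, the kinase that marks centromeric chromatin, had the largest fall of the class on the log2(TPM + 1) scale, where Ttk fell slightly further in TPM. It was 29.3, 37.8 and 40.6 TPM at day 0, 1.24, 1.74 and 1.62 at day 2, and 16.3, 12.3 and 18.3 at day 14, which left 4.26% at day 2. Its partner Bub3, which docks BUB1 and BUBR1 at the kinetochore, fell the least of the class. It was 121, 126 and 134 TPM at day 0, 45.6, 51.8 and 39.8 at day 2, and 81.1, 91.3 and 99.3 at day 14. No day overlapped another, but the log2 fold change at day 2 was only -1.46 ± 0.12 (SE) (adjusted p = 1.19e-05), and 36.0% of the day 0 level was left. The ratio of Bub3 to Bub1 accordingly went from 4.13, 3.34 and 3.30 at day 0 to 36.9, 29.8 and 24.6 at day 2 and 4.96, 7.44 and 5.44 at day 14. Bub1b (BUBR1) kept 7.82% and regained 42.7%, and the kinase Ttk (MPS1) kept 4.05% and regained 49.3%.

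The remaining pair of checkpoint genes, Zwilch and Kntc1 (ROD), encode members of the Rod-Zwilch-ZW10 complex, which brings MAD1 and MAD2 to unattached kinetochores, and neither was called lower than day 0 at day 14. Zwilch was 17.1, 22.7 and 23.97 TPM at day 0, 1.65, 2.43 and 2.34 at day 2, and 17.5, 19.2 and 25.5 at day 14. Its day 14 libraries lay within and above the day 0 range, with 97.0% ± 21.9 of the loss regained and a log2 fold change against day 0 of -0.04 ± 0.19 (SE) (limma, adjusted p = 0.867). Kntc1 was 13.4, 18.2 and 20.2 TPM at day 0, 0.916, 1.56 and 1.24 at day 2, and 12.8, 10.4 and 14.9 at day 14. It overlapped day 0 through the low day 0 replicate 1, and regained 71.6% ± 14.3 (adjusted p against day 0 = 0.0972). Without day 0 replicate 1 Kntc1 was called lower at day 14 (limma, adjusted p = 0.0399), as it was under median-of-ratios scaling (adjusted p = 0.00952) and quantile normalization (0.0131). The ratio of Zwilch to Mad2l1 was 0.149, 0.174 and 0.170 at day 0 and 0.411, 0.448 and 0.462 at day 14. Zwilch regained the most of the class and Mad2l1 the least, so a shift of this ratio follows from the choice of the pair.

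All 9 inner kinetochore genes fell at day 2, from 3.62% left for Cenpa to 48.4% left for Cenpt, and 6 were still lower at day 14. Cenpa encodes the histone H3 variant that marks the centromere. It was 109, 138 and 139 TPM at day 0, 3.66, 4.68 and 5.61 at day 2, and 55.2, 36.2 and 55.5 at day 14, the highest day 0 level and the largest fall of the class, and no day overlapped another. Its log2 fold change was -4.52 ± 0.20 (SE) at day 2 (limma, adjusted p = 3.95e-07) and -1.39 ± 0.20 (SE) at day 14 (adjusted p = 0.000456). Cenpt, which links centromeric DNA to the NDC80 complex, fell least. It was 36.7, 36.1 and 40.2 TPM at day 0, 19.5, 16.4 and 18.7 at day 2, and 28.3, 25.3 and 26.5 at day 14, with the 3 days apart and a log2 fold change of -1.01 ± 0.11 (SE) at day 2 (adjusted p = 4.83e-05). Its rise from day 2 to day 14 (log2 fold change 0.53, adjusted p = 0.006) did not pass under median-of-ratios scaling (adjusted p = 0.125) or quantile normalization (adjusted p = 0.137).

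Among the other inner kinetochore genes, Cenpm regained the least, 34.7% ± 11.5. It was 31.4, 38.3 and 31.2 TPM at day 0, 1.22, 3.004 and 2.65 at day 2, and 10.4, 11.8 and 17.3 at day 14, and day 14 replicate 3 was the highest of its day. Its product forms a complex with those of Cenph, Cenpi and Cenpk that joins the layers of the inner kinetochore, and the 4 genes regained 34.7%, 48.3%, 35.4% and 67.5% respectively. Cenpk was 7.56, 9.79 and 10.2 TPM at day 0, 0.640, 2.35 and 0.802 at day 2, and 6.63, 6.05 and 7.15 at day 14. All its day 14 libraries lay under its day 0 libraries, but by less than the test required (log2 fold change -0.41 ± 0.25 (SE), limma, adjusted p = 0.192). Cenpp and Cenpq, whose products belong to the CENP-O group that recruits PLK1, were the other inner kinetochore genes that were not called lower at day 14. Cenpp was 8.204, 10.6 and 9.82 TPM at day 0, 1.84, 2.76 and 1.82 at day 2, and 9.26, 6.51 and 6.59 at day 14, and its day 14 replicate 1 fell within the day 0 range. Cenpq was 25.6, 24.9 and 29.0 TPM at day 0, 4.24, 7.69 and 5.64 at day 2, and 18.8, 18.4 and 20.7 at day 14, with no overlap, and its adjusted p against day 0 was 0.0584. They kept 22.4% and 22.1% at day 2 and regained 71.7% and 65.0%. Cenpk, Cenpp and Cenpq were called lower at day 14 under median-of-ratios scaling, with limma adjusted p-values of 0.04, 0.0135 and 0.00538, and under quantile normalization (0.0251, 0.00871 and 0.0167). A fit of only the compared groups also called Cenpk (0.0411) and Cenpq (0.01), and a pseudocount of 5 called Cenpq (0.0288). Leaving out day 2 replicate 2, which enters through the shared variance, also let Cenpk (adjusted p = 0.0379) and Cenpq (0.0179) pass, as did leaving out day 2 replicate 1 for Cenpq (0.023). Cenpn, which reads the CENP-A nucleosome, kept 10.6% and regained 52.8%.

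The outer kinetochore held both the largest and the smallest return among the 56 genes that had fallen. Of its 11 genes, 10 fell at day 2. Against day 0, 8 were still lower at day 14, 1 was higher and 2 did not pass. The NDC80 complex, the rod that binds the microtubule, has 4 subunits. Ndc80 was 27.3, 32.8 and 30.8 TPM at day 0, 1.28, 2.02 and 2.46 at day 2, and 26.7, 18.9 and 25.4 at day 14. Its day 14 libraries lay under the day 0 libraries, replicate 1 only just, with 76.6% ± 14.6 regained (limma against day 0, adjusted p = 0.131, and 0.0181 under median-of-ratios scaling, where it was called lower). Nuf2, its partner in the microtubule-binding end, had the largest fall of the class. It was 27.4, 30.8 and 33.3 TPM at day 0, 0.695, 1.35 and 0.844 at day 2, and 9.32, 9.50 and 12.7 at day 14, and regained 32.4% ± 6.53. These 2 subunits had nearly equal TPM at day 0, with an Ndc80 to Nuf2 ratio of 0.995, 1.07 and 0.927, and unequal TPM at day 14, with 2.86, 1.99 and 1.99. Spc24 and Spc25, which anchor the rod to the inner layers, kept 5.03% and 4.81% and regained 36.2% and 52.1%.

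The SKA complex, which keeps kinetochores on shrinking microtubule ends, was split further. Ska1 was 15.9, 19.0 and 20.0 TPM at day 0, 0.132, 1.06 and 0.707 at day 2, and 5.32, 3.002 and 5.07 at day 14. It had the smallest return of all 56 genes, 21.7% ± 7.22, and a log2 fold change of -1.84 ± 0.25 (SE) at day 14 (limma, adjusted p = 0.000359). Ska2 was 42.4, 46.9 and 49.9 TPM at day 0, 15.0, 23.7 and 15.8 at day 2, and 38.6, 43.8 and 61.4 at day 14. It fell the least of the called outer kinetochore genes, with a log2 fold change of -1.33 ± 0.21 (SE) at day 2 (adjusted p = 0.000506), and by day 14 its libraries spanned the day 0 range, with 105% ± 42.3 regained and a wide spread (adjusted p against day 0 = 0.937). Ska3 lay between, with 11.9% left and 52.2% regained. The Ska3 to Ska1 ratio, 1.11, 1.11 and 1.11 at day 0, was 2.20, 2.99 and 2.86 at day 14. Day 2 ratios to Ska1 are not read, since Ska1 was as low as 0.132 TPM there.

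Zwint, which joins the outer kinetochore scaffold KNL1 to the Rod-Zwilch-ZW10 complex, was the only one of the 58 genes called higher than day 0 at day 14. It was 78.8, 79.3 and 79.7 TPM at day 0, 103, 107 and 80.03 at day 2, and 105, 121 and 119.7 at day 14. The day 0 libraries were tight, and every later library was above them, day 2 replicate 3 by the smallest margin. The log2 fold change was 0.27 ± 0.12 (SE) at day 2 (limma, adjusted p = 0.0822) and 0.53 ± 0.12 (SE) at day 14 (adjusted p = 0.0052). The call at day 14 was lost under median-of-ratios scaling (log2 fold change 0.24, adjusted p = 0.0567), while the rise at day 2 passed under that scaling (0.26, adjusted p = 0.0384), under quantile normalization (0.61, adjusted p = 0.000737), with the 20 most abundant rows removed (0.44, adjusted p = 0.0032) and without day 2 replicate 3 (0.40, adjusted p = 0.00876). In none of these was Zwint below day 0. Against Ndc80, an outer kinetochore gene that fell, the Zwint ratio was 2.89, 2.42 and 2.59 at day 0, 80.4, 52.9 and 32.5 at day 2 and 3.94, 6.37 and 4.72 at day 14. The other outer kinetochore genes were Knstrn (kinastrin), the kinesin Cenpe, which carries chromosomes to the spindle equator, and Cenpf, which binds microtubules and dynein regulators. They kept 8.42%, 5.54% and 3.41% at day 2 and regained 49.9%, 64.5% and 59.7%.

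**Figure D4:**
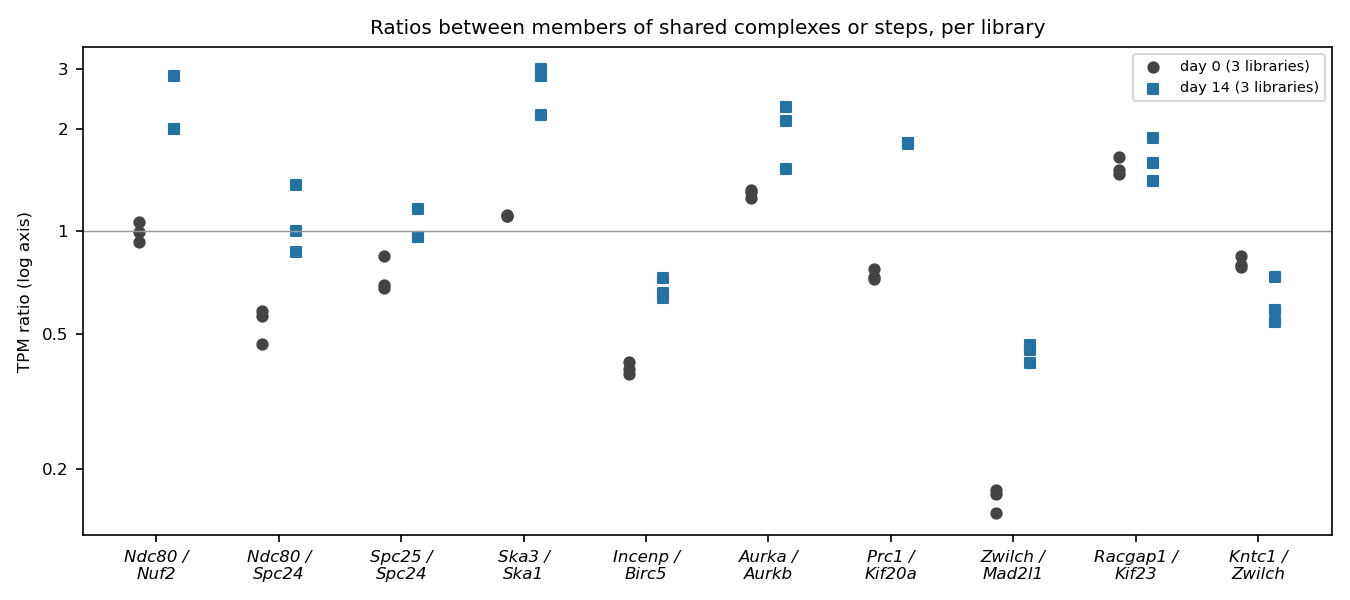
Ratio of TPM between genes of the same complex or pathway step in each library (log axis), with 1 point per library and 1 color per day. The Ndc80 to Nuf2, Ska3 to Ska1, Incenp to Birc5 and Prc1 to Kif20a ratios are higher at day 14 without overlap with day 0. Those of Racgap1 to Kif23 overlap between these days. Incenp and Birc5, Prc1 and Kif20a, and Zwilch and Mad2l1 regained the most and the least of their classes. The shifts of their ratios follow from that choice.

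All 10 genes of spindle assembly and motors fell at day 2 and all 10 were still lower at day 14. Tpx2, which activates Aurora A on spindle microtubules, had the highest day 0 level. It was 68.1, 78.0 and 80.1 TPM at day 0, 4.44, 5.38 and 5.05 at day 2, and 40.9, 28.1 and 45.3 at day 14, with no overlap between days and 47.0% ± 12.7 regained. Gtse1, which stabilizes spindle microtubules, fell the most and regained the least. It was 39.4, 37.0 and 44.1 TPM at day 0, 1.05, 1.44 and 1.47 at day 2, and 13.03, 10.9 and 14.1 at day 14, a log2 fold change of -4.15 ± 0.14 (SE) at day 2 (limma, adjusted p = 1.88e-07) and -1.59 ± 0.14 (SE) at day 14 (adjusted p = 4.36e-05). Kif15, a plus-end motor that helps keep the spindle bipolar, had the smallest log2 change of the class, -2.19 ± 0.14 (SE) (adjusted p = 3.31e-06). It was 4.73, 5.38 and 6.36 TPM at day 0, 0.330, 0.385 and 0.545 at day 2, and 2.26, 1.84 and 2.07 at day 14. Its level is low, and on the TPM scale it was 13.1-fold lower at day 2, near the class median of 7.004% left. Kifc1, the minus-end motor that focuses spindle poles, regained the most, 65.5% ± 18.4. It was 54.8, 51.6 and 57.1 TPM at day 0, 4.10, 4.48 and 5.02 at day 2, and 42.3, 26.6 and 42.8 at day 14, and day 14 replicate 2 was far under the other day 14 libraries.

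Of the other motors, Kif11 (the sliding motor Eg5) and Kif18a (which limits chromosome movements) regained 64.7% and 63.6%, whereas Kif22 (a chromosome-arm motor) and Kif2c (MCAK, which takes microtubules apart) regained 30.5% and 40.3%. Kif4, a motor of chromosome arms and midzone, regained 43.3%, and Hmmr, a spindle pole protein, regained 54.7%. The day 14 calls of Kif11 (limma, adjusted p = 0.0437), Kif18a (0.0474) and Kifc1 (0.0225) were near the threshold. Without day 0 replicate 3 these 3 genes did not pass (adjusted p = 0.135, 0.142 and 0.0687), and without day 14 replicate 2 neither Kif11 (0.148) nor Kif18a (0.159) did. Single omissions of other libraries ended the calls of Kif11 (day 0 replicates 1 and 2, day 2 replicate 2 and day 14 replicate 3, adjusted p = 0.057, 0.0888, 0.0512 and 0.0663), Kif18a (day 0 replicate 2, day 2 replicate 1 and day 14 replicate 1, adjusted p = 0.128, 0.0577 and 0.0527) and Kifc1 (day 0 replicate 1, adjusted p = 0.0575). Kif11 and Kif18a also lost the call with a pseudocount of 0.1 (adjusted p = 0.0565 and 0.0615), with no filter (0.0669 and 0.0774) and without the 20 most abundant rows (0.0774 and 0.0527). Quantile normalization ended that of Kif11 (0.0565), and a mean of at least 5 TPM (0.053), the replicate block (0.0718) and a fit of only the compared groups (0.0503) that of Kif18a.

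All 9 genes of the midzone and of cytokinesis fell at day 2, and 8 were still lower at day 14. Kif20a, the motor that carries the passenger complex to the midzone, had the highest day 0 level, the smallest return and, on the log2(TPM + 1) scale, the largest fall. It was 125, 138 and 145 TPM at day 0, 3.99, 6.10 and 5.53 at day 2, and 49.7, 36.9 and 53.2 at day 14, and the 3 days did not overlap. Its log2 fold change was -4.48 ± 0.17 (SE) at day 2 (limma, adjusted p = 2.64e-07), and it regained 31.7% ± 6.56. Prc1, the protein that bundles the microtubules of the midzone, regained the most. It was 90.5, 101 and 113 TPM at day 0, 6.32, 10.2 and 6.56 at day 2, and 89.5, 67.2 and 96.8 at day 14. Its day 14 replicate 3 lay within the day 0 range, and the log2 fold change against day 0 was -0.27 ± 0.19 (SE) (adjusted p = 0.257, and 0.0195 under median-of-ratios scaling, where it was called lower). The ratio of Prc1 to Kif20a was 0.724, 0.734 and 0.775 in the day 0 libraries and 1.80, 1.82 and 1.82 in the day 14 libraries. This pair joins the largest and the smallest return of the class, and its shift follows from that choice.

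Kif23, the kinesin of the centralspindlin complex, fell least of the midzone genes. It was 71.8, 84.4 and 91.3 TPM at day 0, 13.1, 12.1 and 15.5 at day 2, and 45.5, 29.6 and 41.3 at day 14, with the days apart, 16.4% left at day 2 and 36.6% regained. Racgap1, its partner in centralspindlin, kept 9.81% and regained 44.0%. Their ratio was 1.65, 1.52 and 1.47 at day 0, 0.929, 1.15 and 0.734 at day 2 and 1.40, 1.59 and 1.88 at day 14. Day 0 and day 14 overlap, and every day 2 ratio lay below both. Ect2, which activates RhoA at the division site, regained 51.2%, Anln, which organizes the contractile ring, 54.4%, Cep55, which recruits the abscission machinery, 67.1%, and the midzone kinesins Kif20b and Kif14 49.1% and 39.9%. On the TPM scale Kif14 fell 36.2-fold, from 9.26 ± 1.46 to 0.256 ± 0.0295 TPM (SD, n = 3), more than its log2 change of -3.02 shows and more than the 26.1-fold of Kif20a. The day 14 calls of Anln, Cep55 and Cenpe were each lost without day 0 replicate 3 (limma, adjusted p = 0.0804, 0.061 and 0.0565) and without day 0 replicate 2 (adjusted p = 0.0609, 0.0519 and 0.062), and without day 14 replicate 2 (adjusted p = 0.0836, 0.0600 and 0.0565).

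The last class held Top2a, the topoisomerase that untangles sister chromosomes, and Mki67, the Ki-67 protein that coats mitotic chromosomes and is widely used as a proliferation marker. Top2a was 163, 183 and 217 TPM at day 0, 6.48, 10.8 and 9.67 at day 2, and 115, 92.0 and 116 at day 14. Mki67 was 50.7, 63.2 and 69.3 TPM at day 0, 1.73, 2.55 and 2.68 at day 2, and 40.3, 28.3 and 35.7 at day 14. In both genes the 3 days were separate, and day 14 replicate 2 was the lowest of its day. The log2 fold change at day 2 was -4.26 ± 0.19 (SE) for Top2a and -4.22 ± 0.18 (SE) for Mki67 (limma, adjusted p = 3.95e-07 and 3.58e-07). They regained 55.2% ± 7.54 and 55.2% ± 10.2, and stood at 57.4% and 56.9% of day 0 at day 14.

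Promoter sequences of these genes hold 2 elements known from late cell cycle genes. The CHR element (TTTGAA) is bound by the DREAM complex, which represses these genes in resting cells, and by the B-MYB and FOXM1 complexes that activate them, and the CCAAT box is bound by the activator NF-Y. RefSeq promoters (GRCm38.p6, from 250 bases before to 50 bases after each start) were found for 51 of the 58 genes, 58 promoters in all. The genes without a match were Aurkb, Incenp, Kif20a, Ska1, Spc24, Tpx2 and Zwilch. The authors' genome build is not given in the sources used. The stretches below give the 100 bases before the start, 5′ to 3′ on the gene's strand, in 3 sets. The first holds genes that fell and have both elements (Cdc20, Espl1 and Top2a, of deep loss, and Kif11, near the median loss). The second is the gene of deepest loss (Birc5). The last holds Ska2, which fell but kept 39.2% at day 2, and Zwint and Pttg1, which were not called lower. Cenpt, which kept 48.4%, is not shown. Capitals mark TTTGAA or CCAAT on either strand (TTCAAA and ATTGG when read on the gene's strand), and no matches overlap in the stretches shown.
Cdc20 chr4:118437344-118437443 (- strand): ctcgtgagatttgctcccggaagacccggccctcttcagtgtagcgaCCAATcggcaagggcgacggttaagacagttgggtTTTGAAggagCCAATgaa
Espl1 chr15:102296193-102296292 (+ strand): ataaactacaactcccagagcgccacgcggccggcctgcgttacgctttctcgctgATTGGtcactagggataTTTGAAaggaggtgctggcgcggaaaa
Kif11 chr19:37376282-37376381 (+ strand): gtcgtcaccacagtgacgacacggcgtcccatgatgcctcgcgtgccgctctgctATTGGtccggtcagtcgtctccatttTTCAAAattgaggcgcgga
Top2a chr11:99024190-99024289 (- strand): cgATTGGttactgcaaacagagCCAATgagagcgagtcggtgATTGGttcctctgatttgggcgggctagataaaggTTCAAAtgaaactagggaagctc
Birc5 chr11:117849137-117849236 (+ strand): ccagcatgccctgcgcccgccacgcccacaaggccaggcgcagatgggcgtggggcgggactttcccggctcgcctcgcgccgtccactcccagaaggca
Ska2 chr11:87109161-87109260 (+ strand): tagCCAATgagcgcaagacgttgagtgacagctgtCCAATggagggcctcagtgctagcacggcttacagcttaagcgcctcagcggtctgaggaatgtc
Zwint chr10:72654746-72654845 (+ strand): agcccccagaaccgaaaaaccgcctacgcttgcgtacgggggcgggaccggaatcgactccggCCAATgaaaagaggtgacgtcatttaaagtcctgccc
Pttg1 chr11:43425982-43426081 (- strand): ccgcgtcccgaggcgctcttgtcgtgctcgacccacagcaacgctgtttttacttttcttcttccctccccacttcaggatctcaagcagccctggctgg

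In the first 4 stretches the CHR element begins at position -18 in Cdc20, -27 in Espl1, -19 in Kif11 and -23 in Top2a, counted from the start. Each has at least 1 CCAAT box upstream of it. Birc5 and Pttg1, the genes of the deepest loss and of no called loss, have neither in these 100 bases, and Ska2 and Zwint have CCAAT boxes only. No match says only that these letters are not in this window.

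Over all 58 promoters, TTTGAA was found on either strand in 37 (63.8%), against 17.9% of the 32851 RefSeq promoters of the same length and 12.04% of those of tested genes. Within 50 bases of the start the share was 56.9%, against 4.94% of all promoters. CCAAT was found in 42 (72.4%), against 37.4% of all, and both elements together in 29 (50%), against 6.95%. The related letters TTTAAA, a variant of the CHR element, were found in 13 (22.4%), against 13.2%. They begin at position -15 in Zwint, inside the stretch shown above but not marked there. Birc5 has them at -220 and Cenpt at -232 and -205, while Ska2 and Pttg1 have none. The 33 genes with TTTGAA had a median log2 fold change at day 2 of -3.58, with a range of -4.82 to -1.46, and the 18 without it a median of -2.91, with a range of -5.34 to 0.27. The median share regained was 51.2% with it and 45.9% without it. The ranges overlap, and those without it held both the gene of deepest loss, Birc5, and the 4 of smallest or no loss, Ska2, Cenpt, Pttg1 and Zwint. These matches describe the sequence. They are not measured binding sites, and no relation between element and change was tested.

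**Figure D5:**
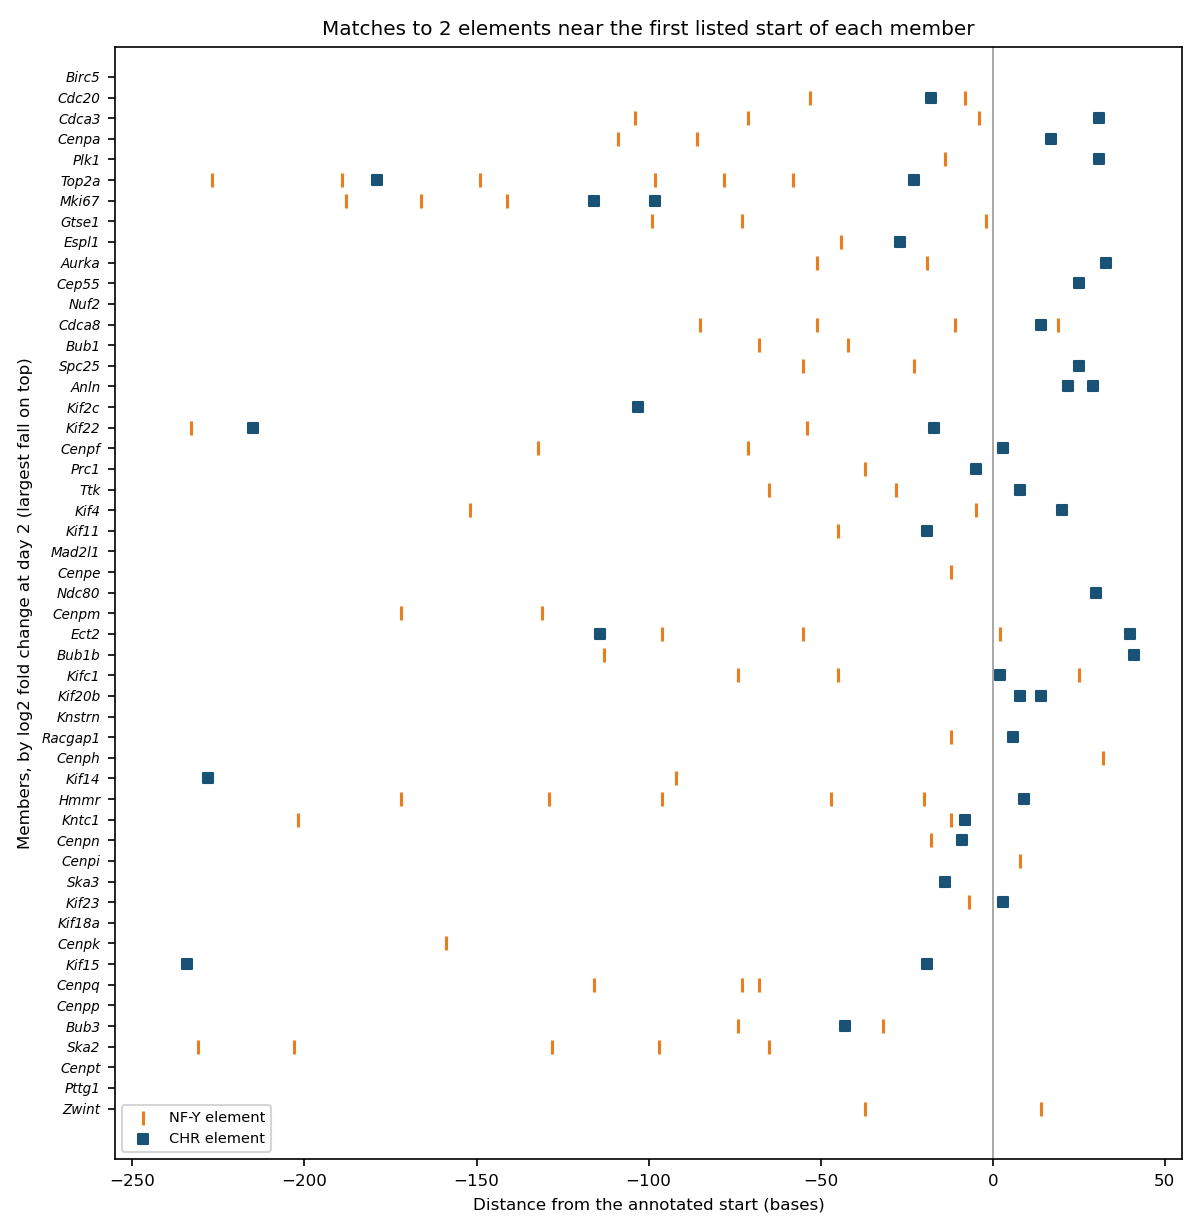
Positions of the CHR and NF-Y elements (horizontal, bases from the transcription start) in the promoter at the first listed start of each of 51 genes, with the genes ordered by their log2 fold change at day 2 against day 0 (vertical). Most CHR elements (TTTGAA) lie within 50 bases of the start, and the genes at the top and bottom of the plot (Birc5, and Ska2, Cenpt, Pttg1 and Zwint) have none. The variant TTTAAA, which Birc5, Cenpt and Zwint carry, is not drawn.

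Other genes of mitosis, from lists of related complexes, had smaller median changes at day 2 than the 58 genes. Of 26 other kinetochore and centromere genes, 22 were lower at day 2 and 0 higher, with a median log2 fold change of -1.96, and 17 were lower at day 14. All 8 condensin subunits, which compact chromosomes, were lower at day 2 (median -2.33), and 6 at day 14. Of 19 genes of the anaphase-promoting complex and its ubiquitin-conjugating enzymes 13 were lower and 1 was higher (median -0.63), of 14 centriole genes 11 and 0 (median -1.02), and of 17 genes of augmin and the gamma-tubulin complex 12 and 1 (median -0.78). Cohesin and its regulators moved in both directions, with 5 lower and 3 higher of 13 (median -0.16). Of 22 genes of the contractile ring and abscission, many of which also act outside mitosis, 7 were lower and 0 higher (median -0.16), and of 14 tested kinesins of transport and other roles 1 was lower and 5 higher (median 0.25). These counts are read against 31.9% lower and 27.1% higher among all genes tested at day 2, and 18.8% lower and 36.2% higher at day 14.

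Within these lists the largest falls were of the size seen among the 58 genes. Ube2c, the ubiquitin-conjugating enzyme of the anaphase-promoting complex, was 476 ± 50.3 TPM at day 0, fell to 22.6 ± 4.84 TPM at day 2 and stood at 223 ± 39.8 TPM by day 14 (mean ± SD, n = 3). Its log2 fold change was -4.35 ± 0.19 (SE) at day 2 (limma, adjusted p = 3.58e-07). The largest falls of the other lists were those of Spdl1, which recruits dynein to kinetochores (-3.28), the condensin subunit Ncapg (-3.09), Diaph3, a formin of the contractile ring (-3.07), Cdca5 (sororin), which protects cohesion (-3.07), Plk4, which starts centriole duplication (-3.01), and the augmin subunit Haus8 (-2.02). Among the transport kinesins, the fall of Kif1c was small (-0.31), and Kif5c rose from 1.07 ± 0.254 to 6.78 ± 0.874 TPM at day 2 (log2 fold change 1.91, adjusted p = 2.42e-05). The largest rises elsewhere were those of Mau2, which loads cohesin (0.78), Mzt2, of the gamma-tubulin complex (0.62), and Anapc16, a subunit of the anaphase-promoting complex (0.52).

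Of 18 tested regulators of mitotic gene transcription, 10 were lower and 1 was higher at day 2 (median log2 fold change -1.06), where 31.9% and 27.1% of all genes were. At day 14, 7 were lower and 3 higher, where 18.8% and 36.2% of all genes were. Mybl2, which encodes the activator B-MYB, was 47.8, 51.1 and 56.8 TPM at day 0, 1.51, 1.70 and 1.53 at day 2, and 7.498, 7.42 and 10.4 at day 14. No day overlapped another, and its log2 fold change was -4.36 ± 0.14 (SE) at day 2 and -2.50 ± 0.14 (SE) at day 14 (limma, adjusted p = 1.88e-07 and 1.01e-05). Rbl2, which encodes p130, a pocket protein of the repressing DREAM complex, was 9.68, 9.01 and 8.36 TPM at day 0, 28.9, 23.0 and 21.3 at day 2, and 29.9, 26.4 and 19.6 at day 14. Every later library was above the day 0 libraries, and its log2 fold change was 1.33 ± 0.17 (SE) at day 2 and 1.38 ± 0.17 (SE) at day 14 (adjusted p = 0.000161 and 0.000225). Rbl2 was the 1 regulator called higher at day 2. After Mybl2, the largest fall was that of Foxm1, which encodes the activator FOXM1 (log2 fold change -3.78, limma, adjusted p = 4.74e-07). The other regulators lower there were Rbl1 (-2.34), Tfdp1 (-1.91), Lin9 (-1.49), E2f1 (-1.47), E2f4 (-1.32), Lin54 (-1.30), Nfyc (-1.11) and Trp53 (-1.01). Lin37, Lin52 and Rbbp4 did not pass the test at day 2. At day 14 Lin52 (log2 fold change 1.05, limma, adjusted p = 0.000133) and Lin37 (0.69, adjusted p = 0.0275) were higher than day 0, as was Rbl2. Whether any of these regulators bears on the 58 genes was not tested.

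Some values may be shared with neighbouring or copied sequences, because 11 of the 58 genes have transcripts that match another annotated gene over at least 200 bases at 95% identity or more. The longest such match was that of Kifc1 with Kifc5b, 96.8% over 2312 of 2357 bases, and Kifc5b stood at 14.7, 3.40 and 15.0 TPM on average on the 3 days. Ska2 matches the pseudogene Ska2l-ps (97.2% over 360 bases) and an antisense transcript, Ndc80 matches 2700099C18Rik and a pseudogene, and Prc1 (with Rccd1), Zwilch (with Lctl), Kif20a (with Cdc23), Kif4 (with Pdzd11) and Cenpp (with Ippk) share an identical stretch with another gene. Mad2l1, Mki67 and Racgap1 match processed pseudogenes. How the authors' quantification divided these reads, and whether it used strand, is not stated in these sources, so the returns of Ska2, Kifc1, Zwilch, Ndc80, Prc1 and Cenpp carry this uncertainty, and its part in them was not tested.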

How the data were processed

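RNA was sequenced from 9 libraries of 6620c1 cells, 3 each at day 0, 2 and 14. The authors deposited gene TPM, scaled within each library. Salmon is named in the submitters' processing notes, without a version, and neither the index, the strand setting nor the genome build is given in the sources used here. TPM keep no read totals, so depth and counting error are unknown.

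Genes reaching 1 TPM in 3 or more libraries (12693 of 24493) were tested on log2(TPM + 1) with limma 3.58.1 (R 4.3.3), with a mean per day and trended moderated variances. Two-sided p-values were adjusted over all genes (Benjamini-Hochberg), and a gene was called at an adjusted p under 0.05. The percent left is the day 2 mean over the day 0 mean, in TPM. The share regained is the day 14 mean minus the day 2 mean, divided by the day 0 mean minus the day 2 mean, in TPM, for genes called lower at day 2, and its SD is over the day 14 libraries with the other means held. With 3 libraries against 3 an exact permutation test cannot go below p = 0.1, so TPM ratios are described without a test. Several pairs join the extremes of a class, and their ratios shift by that choice.

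The genes, classes and lists were chosen with earlier results of these data known. Values were given in full, per class, for the highest day 0 level, the largest and smallest fall and the largest and smallest return, and for genes not lower at day 2 or 14. In the other lists they were given for the largest fall and rise among those called.

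The fit was tested on simulated data. Shared sequence was searched with BLAST+ 2.17.0 in GENCODE transcripts, and Python 3.11.15 with matplotlib 3.10.9 drew the figures. Other settings tried were quantile normalization, median-of-ratios scaling, leaving out the 20 most abundant rows, a replicate block, fitting only the compared groups, leaving out each library, pseudocounts of 0.1 and 5, a filter at a mean of 5 TPM, testing every row, and the share regained on the log2 scale.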

Additional observations from a re-analysis of the deposited data

Results flagged for a closer look

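The change from day 0 differed between day 2 and day 14 for 56 of the 58 genes (limma, day 14 against day 2, adjusted p under 0.05, all 56 higher at day 14). The exceptions were Pttg1 and Zwint. Over all genes tested, 27.4% were higher at day 14 than at day 2 and 3.79% lower. Each of the 56 had all its day 14 libraries above all its day 2 libraries.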

How the results depend on the processing

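Depth could not be read from TPM, and with 3 libraries a day small changes at low levels may be missed. All 56 falls at day 2 kept their call in every alternative that tested the gene. A mean of at least 5 TPM left Kif14 and Kif15 untested, and 54 fell.

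The median log2 fold change of the 58 genes at day 2 was -3.87 with a pseudocount of 0.1 and -2.55 with 5. At day 14 against day 2 it was 2.92 and 1.68 with these, 2.31 under median-of-ratios scaling and 2.29 under quantile normalization. At day 14 against day 0 it was -1.17 under median-of-ratios scaling. The inner kinetochore lay above midzone and cytokinesis by 1.39 with a pseudocount of 5, 0.40 under quantile normalization and 0.49 without the 20 most abundant rows. The median share regained was 35.9% under median-of-ratios scaling and 70.7% on the log2 scale.

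Leaving out each library in turn gave 56 to 57 of the 58 genes called in either direction at day 2, 43 to 50 at day 14 against day 0 and 56 in every case at day 14 against day 2. The call beyond the 56 falls at day 2 was the rise of Zwint without day 2 replicate 3. The medians ran from -3.60 to -3.42, from -0.99 to -0.78 and from 2.44 to 2.64, the class difference from 0.57 to 0.70 in log2 fold change and from -8.29 to 2.76 percentage points in share regained, and the median share regained from 44.0% to 52.5%. Over all genes 6356 to 7615, 5622 to 7264 and 2832 to 4286 were called.

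Over all genes, 2389 were lower and 4601 higher at day 14 against day 0, and 4027 and 3085 under median-of-ratios scaling, and 3363 and 2843 under quantile normalization. At day 2 3438 were higher and 4046 lower, and 4563 and 3457 without the 20 most abundant rows. At day 14 against day 2, 481 were lower and 3474 higher, 1485 and 1572 under median-of-ratios scaling, 1905 and 1470 under quantile normalization, 818 and 2590 without the 20 most abundant rows, and 291 and 2325 (2616 in all, of 3955) with only the groups compared.

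With the replicate number as a block, 56 of the 58 genes were lower at day 2 and 47 at day 14, where Kif18a was lost (limma, adjusted p = 0.0718). No other call among the 58 changed under the block. The numbers are not known to pair the libraries: 4 of 9 correlated best with their own number, with r from -0.0709 to 0.318.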
